A study of Saccharomyces cerevisiae with 16 samples.

Results

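The response of petite yeast to MCHM in YM medium was described over all genes, from 4 of the 16 libraries of the study, which are 2 libraries of yeast with MCHM and 2 of untreated yeast. MCHM (4-methylcyclohexane methanol) is an alicyclic alcohol used to wash coal. The yeast were haploid Saccharomyces cerevisiae of the strain S96, a MATa lys5 strain. Petite cells, made from S96 by growth with ethidium bromide, do not grow on glycerol, and the cells that the labels call normal are the grande parent. YM is a minimal medium, here with lysine, and YPD is a rich medium. Cultures 6 and 14 of petite yeast in YM were each split. By the sample labels, 1 part took 0.055% MCHM by volume (550 ppm) for 2.5 h and the other part grew on without it. The study's text gives a shorter exposure than the labels, and which holds for these libraries is not known. Petite yeast in YPD (cultures 2 and 10) and grande yeast in YM (cultures 5 and 13), with and without the same amount of MCHM, serve below for comparison. No source used here says that more than 1 petite isolate was grown. Throughout, values of culture 6 come before those of culture 14.

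Petite yeast lack functional mitochondrial DNA and live by fermentation. Pleiotropic drug resistance in yeast is run by Pdr1 and Pdr3, zinc-cluster transcription factors that bind a short DNA element before genes for ABC efflux pumps and lipid-handling proteins, and Pdr3 is known to be active in cells without mitochondrial DNA. Unsaturated fatty acids are made by a single desaturase, Ole1, whose gene is switched on by the membrane-bound factors Mga2 and Spt23. Transport and use of poor nitrogen sources such as allantoin, urea and proline are repressed when good nitrogen is at hand, through GATA factors that read the sequence GATAAG.

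Counts per library came to between 3310896 and 5694566 in the 4 petite YM libraries and to between 2015485 and 5694566 over all 16, and 5856 of 6717 genes passed the filter on low counts. TMM scaling factors, which correct for a few genes taking much of a library, were 0.972 and 1.27 with MCHM and 1.07 and 1.05 without, and 1.27 was the highest of the 16. Levels below are in CPM, counts scaled to a common library size. The 10 most abundant genes took 19.3% and 15.3% of counts with MCHM, against 12.4% and 11.3% without. The 8 mitochondrially encoded genes looked at had 0 counts in every petite library, and at most 4 in any grande library, so they mark the strains only weakly. Among the mating genes, the a-cell gene MFA1 had 250 to 529 counts in the petite YM libraries, and the alpha-cell genes MFALPHA1, MFALPHA2 and STE3 had 0 to 2, 15 to 57 and 16 to 45.

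With MCHM, petite yeast in YM raised 10 of 20 listed genes of the drug resistance network and lowered the desaturase gene OLE1, a fatty acid synthase gene, 4 transporter genes for allantoate, urea, peptides and cysteine, and a mixed set of others. A gene was called when edgeR's quasi-likelihood test, fitted to all 16 libraries, gave it a Benjamini-Hochberg adjusted p under 0.05 and a change of at least 2-fold. Log2 fold changes are given ± their standard error. By this rule 32 genes were called (0.546% of those tested), 15 of them up (0.256%) and 17 down (0.29%). Of the 5856 tested genes, 196 passed 2-fold with an unadjusted p under 0.05, and DESeq2 called 86. Counts of list members under these 2 looser rules below are to be read beside these. By the labels, a treated subculture shares its parent culture with an untreated one. A fit with this culture as a block called 54 genes (0.922%), 25 up and 29 down, 30 of the 32 among them. All 32 called genes moved the same way in both cultures, which 57.8% of all tested genes did. In all 32 the treated and untreated libraries did not overlap, against 39.8% of all tested genes. Both traits are largely fixed by the calling, which used these same libraries, so they are no separate support. The number of calls rests on each library. It was 22 without the treated and 16 without the untreated library of culture 6, and 5 without the treated and 10 without the untreated library of culture 14. The 5 were PDR5, PDR15, SNQ2, RSB1 and GCR1, so without that library 0 genes were called down by edgeR. Fitted on its own 4 libraries, the comparison gave 9 calls, 8 of them among the 32.

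**Figure D1:**
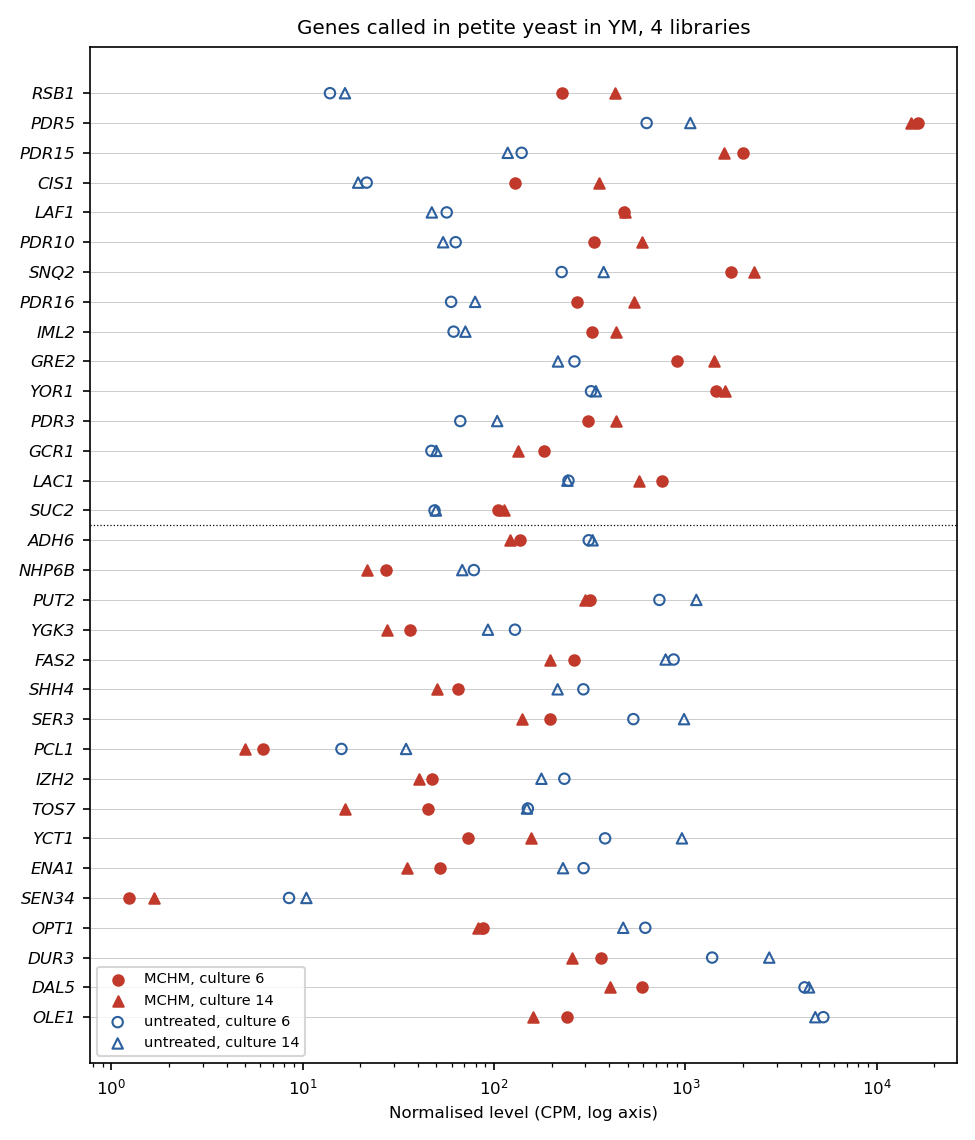
Normalised level in CPM (library-scaled counts, log axis) of the 32 called genes in the 4 libraries of petite yeast in YM, with filled symbols for MCHM and open symbols for untreated yeast, circles for culture 6 and triangles for culture 14. The 15 genes above the dotted line were higher in both treated libraries than in both untreated libraries, and the 17 below it were lower.

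Several ABC efflux pump genes were among the increases. PDR5 (YOR153W), the main plasma membrane drug pump of yeast, had 16330.5 and 15086 CPM with MCHM, against 627 and 1060.3 CPM without (log2 fold change 4.22 ± 0.49, edgeR adjusted p = 0.0020). Its relative PDR15 (YDR406W) had 2001 and 1583 CPM with MCHM, against 139 and 118 CPM without (log2 fold change 3.80 ± 0.36, edgeR adjusted p = 0.0012). PDR10 (YOR328W), a further pump of the PDR5 family, had 334 and 595 CPM with MCHM, against 62.99 and 54.2 CPM without (log2 fold change 2.99 ± 0.48, edgeR adjusted p = 0.016). In each of these pump genes the lowest treated library was several times above the highest untreated one. SNQ2 (YDR011W), which exports many drugs, had 1726 and 2294 CPM with MCHM, against 225 and 374 CPM without (log2 fold change 2.75 ± 0.31, edgeR adjusted p = 0.0020). YOR1 (YGR281W), named for oligomycin resistance, had 1452 and 1610.1 CPM with MCHM, against 321 and 340.3 CPM without (log2 fold change 2.21 ± 0.30, edgeR adjusted p = 0.0068). In SNQ2 and YOR1 too, neither treated library overlapped the untreated ones, as in all 32 called genes and in 39.8% of all tested genes. The vacuolar ABC transporter gene VMR1 had 91.02 and 126 CPM with MCHM, against 37.8 and 34.5 CPM without, and was called only with the culture block (1.57, edgeR adjusted p = 0.025 there, against 1.59, edgeR adjusted p = 0.057 without it).

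Of genes for lipid handling, RSB1, PDR16 and LAC1 were called up. RSB1 (YOR049C), whose product protects cells from sphingoid long-chain bases, had 226 and 426 CPM with MCHM, against 13.9 and 16.6 CPM without, the largest rise among the called genes (log2 fold change 4.41 ± 0.45, edgeR adjusted p = 0.0012). PDR16 (YNL231C), a phosphatidylinositol transfer protein, had 272 and 537 CPM with MCHM, against 59.6 and 79.6 CPM without (log2 fold change 2.54 ± 0.47, edgeR adjusted p = 0.033). LAC1 (YKL008C), a ceramide synthase subunit, had 753 and 572 CPM with MCHM, against 245 and 242 CPM without (log2 fold change 1.44 ± 0.24, edgeR adjusted p = 0.018). Treated levels of RSB1 and PDR16 were higher in culture 14 and those of LAC1 in culture 6, while the untreated levels of LAC1 were nearly equal. ICT1, a lysophosphatidic acid acyltransferase, had 143 and 369 CPM with MCHM, against 49.1 and 61.3 CPM without, a call only with the block (2.07, edgeR adjusted p = 0.0068, against 2.21, edgeR adjusted p = 0.057 without it).

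The transcription factor gene PDR3 (YBL005W) itself rose, with 311 and 433 CPM with MCHM, against 66.6 and 104 CPM without (log2 fold change 2.13 ± 0.36, edgeR adjusted p = 0.021). PDR1, its partner, had 78.6 and 89.9 CPM with MCHM, against 100.02 and 92.7 CPM without (log2 fold change -0.19 ± 0.21, edgeR adjusted p = 0.86). Its treated and untreated libraries lay close together. GRE2 (YOL151W), a methylglyoxal reductase, had 903 and 1418 CPM with MCHM, against 263 and 216 CPM without (log2 fold change 2.28 ± 0.40, edgeR adjusted p = 0.024). CIS1 (YLR346C), known from the response to blocked mitochondrial protein import, had 128 and 352 CPM with MCHM, against 21.6 and 19.5 CPM without (log2 fold change 3.55 ± 0.67, edgeR adjusted p = 0.038). Of the genes in this paragraph CIS1 had the widest spread between treated libraries. LAF1 (YMR102C) had 478 and 485 CPM with MCHM, against 56.6 and 47.3 CPM without (log2 fold change 3.21 ± 0.52, edgeR adjusted p = 0.016). IML2 (YJL082W), linked to the clearing of protein inclusions, had 327 and 434 CPM with MCHM, against 61.4 and 70.8 CPM without (log2 fold change 2.52 ± 0.38, edgeR adjusted p = 0.012).

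Both remaining increases concern sugar use. GCR1 (YPL075W), the activator of glycolytic genes, had 182 and 133 CPM with MCHM, against 47.1 and 49.9 CPM without (log2 fold change 1.70 ± 0.24, edgeR adjusted p = 0.0069). SUC2 (YIL162W), the invertase gene, had 105 and 113 CPM with MCHM, against 48.9 and 49.7 CPM without (log2 fold change 1.15 ± 0.22, edgeR adjusted p = 0.037). It was not called with the culture block (1.15, edgeR adjusted p = 0.054). The change of SUC2 was the smallest among the called genes.

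Over a list of 20 Pdr1/Pdr3 target genes, 10 were called up and 0 down (12 and 0 with the block), and the median log2 fold change was 2.21, against -0.07 over all tested genes. The 10 are PDR5, PDR15, PDR10, SNQ2, YOR1, RSB1, PDR16, PDR3, GRE2 and LAF1, and the block added ICT1 and YGR035C, which had 78.3 and 196 CPM with MCHM, against 25.97 and 19.2 CPM without. Without MCHM 14, that is the treated library of culture 14, 4 members were called and the median was 1.83, and without untreated 6 or untreated 14 there were also 4 calls. Fitted on the 4 petite YM libraries alone, 3 members were called. In that fit PDR5, SNQ2, YOR1 and PDR3 each had an edgeR adjusted p of 0.107 and were not called. The medians of the other 30 lists rested more on single libraries. With 1 of the 4 libraries left out, each of these 30 turned sign or moved by over 1.5 times, 17 of them turning sign, so the lowest and highest such median stand beside the value where a list is first given. Among members that were not called in either fit, TPO1, a polyamine exporter, had a log2 fold change of 1.33 (edgeR adjusted p = 0.12), RTA1 had 0.73, IPT1, which makes the main complex sphingolipid, had 0.35, the pump gene PDR18 had 0.09, and the regulator gene YRR1 had -0.34. The list thus held genes across the whole range of increases as well as genes near 0.

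The element bound by Pdr1 and Pdr3 was looked for in the 600 bases before each start codon, as TCCGCGGA or TCCGTGGA on both strands. At least 1 match was found for 11 of the 15 genes called up (73.3%) and 0 of the 17 called down, against 119 of 5999 protein-coding genes with a full window (1.98%). TCCGCGGA, which reads the same on both strands, was before 8 of the 15 (53.3%, against 0.75% of all), and TCCGTGGA was before 4 of the 15 (26.7%, against 1.3% of all), with PDR5 holding both. The match nearest to the start codon is shown for these 11 genes, to let the element and its surroundings be compared. Each line gives 40 bases of the R64 reference in the direction of the gene, with the element in capitals.

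PDR5 (chrXV:619511-619550, + strand, 305 bases before the start codon): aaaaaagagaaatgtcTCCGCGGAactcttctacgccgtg
PDR15 (chrIV:1278815-1278854, + strand, 371 bases before the start codon): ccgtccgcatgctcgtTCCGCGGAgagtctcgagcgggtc
PDR10 (chrXV:931449-931488, + strand, 330 bases before the start codon): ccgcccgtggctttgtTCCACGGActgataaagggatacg
SNQ2 (chrIV:465319-465358, + strand, 576 bases before the start codon): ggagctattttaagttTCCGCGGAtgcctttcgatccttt
YOR1 (chrVII:1052407-1052446, + strand, 393 bases before the start codon): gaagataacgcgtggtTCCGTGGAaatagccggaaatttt
PDR16 (chrXIV:217441-217480, - strand, 414 bases before the start codon): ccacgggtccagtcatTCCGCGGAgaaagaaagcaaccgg
LAC1 (chrXI:428965-429004, - strand, 429 bases before the start codon): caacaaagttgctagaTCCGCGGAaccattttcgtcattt
PDR3 (chrII:217263-217302, + strand, 183 bases before the start codon): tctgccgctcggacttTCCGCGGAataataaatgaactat
GRE2 (chrXV:43527-43566, + strand, 143 bases before the start codon): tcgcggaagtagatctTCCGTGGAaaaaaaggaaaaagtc
CIS1 (chrXII:822894-822933, - strand, 317 bases before the start codon): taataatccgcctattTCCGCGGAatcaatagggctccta
IML2 (chrX:280804-280843, + strand, 357 bases before the start codon): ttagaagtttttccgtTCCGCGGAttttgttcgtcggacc

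The distances run between 143 bases in GRE2 and 576 bases in SNQ2. PDR10 shows TCCACGGA because its nearest match lies on the other strand. RSB1, LAF1, GCR1 and SUC2, the other called genes that rose, had no match in this window. Of the 8 list members that were called in neither fit, 6 had a match (75%). PDR3 and LDB7, a subunit of the RSC chromatin remodeller, are divergent neighbours and share 2 matches, and LDB7 had 68.97 and 96.6 CPM with MCHM, against 33.4 and 39.2 CPM without, a call with the block only (1.18, edgeR adjusted p = 0.020, against 1.19, edgeR adjusted p = 0.057 without it).

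OLE1 fell furthest of all tested genes. OLE1 (YGL055W), the delta-9 desaturase, had 239 and 159.6 CPM with MCHM, against 5254 and 4769.5 CPM without (log2 fold change -4.65 ± 0.54, edgeR adjusted p = 0.0020), and both treated libraries were far below both untreated ones. Without the treated library of culture 14 its log2 fold change was -4.39 (edgeR adjusted p = 0.061). FAS2 (YPL231W), the alpha subunit of fatty acid synthase, had 262 and 197 CPM with MCHM, against 868 and 788 CPM without (log2 fold change -1.85 ± 0.29, edgeR adjusted p = 0.013). FAS1, the beta subunit, had 349 and 289 CPM with MCHM, against 819 and 701 CPM without (log2 fold change -1.25 ± 0.26, edgeR adjusted p = 0.057). Of the pair only FAS2 passed the test, though the libraries of neither gene overlap (nor do those of 39.8% of all tested genes). FAA4, a long-chain acyl-CoA synthetase, had 144 and 70.1 CPM with MCHM, against 651 and 731 CPM without, and was called with the block (-2.78, edgeR adjusted p = 0.017, against -2.70, edgeR adjusted p = 0.080 without it). FAA1, the other main acyl-CoA synthetase, stood on the other side of 0, with 589.9 and 639.9 CPM with MCHM, against 351 and 167 CPM without (log2 fold change 1.25 ± 0.43, edgeR adjusted p = 0.40). Over the 16 genes of the fatty acid list, 2 were called down and 0 up (3 and 0 with the block). Below 0 were 12, against 3313 of all 5856 tested genes, and the list median was -0.48 (-0.53 without MCHM 6, -0.32 without untreated 6). Without MCHM 14, 0 members were called by edgeR. ACC1, acetyl-CoA carboxylase, had a log2 fold change of -0.67, the elongase gene ELO1 had -0.93, and MGA2 had -0.81, none of them called. Late ergosterol genes (18 tested, median -0.03, -0.17 without MCHM 6, 0.22 without untreated 14) and phospholipid genes (17 tested, median -0.27, -0.39 without untreated 14, -0.04 without untreated 6) had 0 calls by edgeR and by DESeq2, with 0 and 1 with unadjusted p under 0.05 and 2-fold. INO1, inositol phosphate synthase, the lowest of the phospholipid list, had 51.6 and 28.4 CPM with MCHM, against 194 and 59.4 CPM without (log2 fold change -1.67 ± 0.65, edgeR adjusted p = 0.50).

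Among genes of nitrogen use, 3 were called down. DAL5 (YJR152W), the allantoate permease, had 596 and 402 CPM with MCHM, against 4190.1 and 4423 CPM without (log2 fold change -3.11 ± 0.53, edgeR adjusted p = 0.021). DUR3 (YHL016C), which takes up urea and polyamines, had 364 and 256 CPM with MCHM, against 1379 and 2740.5 CPM without (log2 fold change -2.73 ± 0.48, edgeR adjusted p = 0.024). PUT2 (YHR037W), a mitochondrial enzyme of proline use, had 317 and 299.9 CPM with MCHM, against 731 and 1140.1 CPM without (log2 fold change -1.60 ± 0.31, edgeR adjusted p = 0.041). The untreated libraries of DUR3 and PUT2 were higher in culture 14, and those of DAL5 were close together. Over 30 genes under nitrogen catabolite repression, 3 were called down and 0 up. Below 0 were 24, against 3313 of all 5856 tested genes, and the list's median log2 fold change was -0.56 (-0.93 without untreated 6, -0.18 without untreated 14). Members that were not called included GAP1, the general amino acid permease (-1.55, edgeR adjusted p = 0.61), PUT4, the proline permease (-1.73, edgeR adjusted p = 0.32), PUT1, proline oxidase (-1.52, edgeR adjusted p = 0.11), and GDH2, the glutamate-degrading dehydrogenase (-1.53, edgeR adjusted p = 0.22). The GABA permease gene UGA4 (-1.51) and the repressor gene DAL80 (-1.41) had similar values. Without MCHM 14 or untreated 14, 0 members were called by edgeR, and 11 members were lower by 2-fold at an unadjusted p under 0.05 with all libraries. Over all 5856 tested genes, 196 passed this unadjusted rule, up or down. At least 2 copies of GATAAG (both strands, 600 bases) were before 5 of the 17 genes called down (29.4%) and 1 of the 15 called up (6.67%), against 4.92% of all windows. The 5 were DAL5, OLE1, OPT1, TOS7 and YGK3, while DUR3 and PUT2 had 1 copy each, so of the 3 called nitrogen genes only DAL5 was among them.

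A peptide and a cysteine transporter gene were also called down. OPT1 (YJL212C), which carries glutathione and oligopeptides, had 87.9 and 82.5 CPM with MCHM, against 617 and 473 CPM without (log2 fold change -2.68 ± 0.33, edgeR adjusted p = 0.0032). YCT1 (YLL055W), a cysteine transporter, had 73.01 and 156 CPM with MCHM, against 380.3 and 959 CPM without (log2 fold change -2.54 ± 0.44, edgeR adjusted p = 0.023). DIP5, the permease for glutamate and aspartate, had 346 and 132 CPM with MCHM, against 2274 and 1471 CPM without. OPT2, another oligopeptide transporter, had 24.2 and 15.1 CPM with MCHM, against 111 and 114 CPM without. All 4 transporters were lower in both cultures, and 57.8% of all tested genes moved the same way in both. DIP5 was called with the block only (-3.10, edgeR adjusted p = 0.017, against -2.97, edgeR adjusted p = 0.057 without it), as was OPT2 (-2.56, edgeR adjusted p = 0.0025, against -2.53, edgeR adjusted p = 0.057). Among 21 amino acid and peptide permeases 1 was called down and 0 up (3 and 0 with the block), with a median of -0.46 (-0.46 without MCHM 6, 0.01 without untreated 14). Above 0 were 7 members, against 2543 of all 5856 tested genes. SAM3, the S-adenosylmethionine permease (-2.09, edgeR adjusted p = 0.063), and PTR2, the dipeptide permease (-1.96, edgeR adjusted p = 0.25), were not called in either fit. Of 29 genes of sulfate assimilation, methionine and S-adenosylmethionine, YCT1 was the 1 gene called, and the median was -0.18 (-0.44 without untreated 6, 0.03 without untreated 14). SAM2, an S-adenosylmethionine synthetase, had -1.20.

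SER3 (YER081W), the first enzyme of serine synthesis, had 197 and 139.5 CPM with MCHM, against 534 and 984 CPM without (log2 fold change -2.17 ± 0.30, edgeR adjusted p = 0.0069). It was the 1 called gene among 50 genes of the other amino acid pathways, whose median was -0.01 (-0.30 without untreated 6, 0.41 without untreated 14). SER3 overlaps the noncoding SRG1 by 77 bases in the annotation, and since reads were counted without strand the reads of both cannot be told apart there. Lists of arginine and lysine synthesis (18 tested, median -0.08, -0.66 without untreated 6, 0.81 without untreated 14) and purine synthesis (35 tested, median -0.19, -0.40 without untreated 6, 0.05 without untreated 14) had 0 calls by edgeR and by DESeq2, with 1 and 0 with unadjusted p under 0.05 and 2-fold.

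IZH2 (YOL002C), a membrane protein of the progestin and adiponectin receptor family that is tied to zinc and lipid balance, had 47.5 and 40.7 CPM with MCHM, against 233 and 177 CPM without (log2 fold change -2.22 ± 0.34, edgeR adjusted p = 0.012). Its relative IZH1 had 94.4 and 76.1 CPM with MCHM, against 228 and 444 CPM without, a call with the block (-1.91, edgeR adjusted p = 0.025, against -1.98, edgeR adjusted p = 0.080 without it). IZH4 had 7.15 and 2.63 CPM with MCHM, against 17.5 and 13.8 CPM without (log2 fold change -1.78 ± 0.55, edgeR adjusted p = 0.31). All 3 IZH genes had lower levels in both treated libraries than in both untreated ones. Treated and untreated libraries did not overlap, in either direction, for 39.8% of all tested genes. The zinc importer gene ZRT1 had 23.6 and 25.5 CPM with MCHM, against 26.7 and 46.3 CPM without (log2 fold change -0.57 ± 0.97, edgeR adjusted p = 0.93). COT1, which moves zinc and cobalt into the vacuole, had 267 and 294 CPM with MCHM, against 146 and 179 CPM without (log2 fold change 0.79 ± 0.23, edgeR adjusted p = 0.27). Of 15 zinc genes 1 was called down and 0 up (2 and 0 with the block), with a median of -0.21 (-0.45 without MCHM 6, -0.04 without MCHM 14). Of 31 iron genes 0 were called by edgeR in either fit and by DESeq2. With unadjusted p under 0.05 and 2-fold 1 of them passed, against 196 of all 5856 tested genes. The median of the iron genes was 0.06 (-0.12 without untreated 6, 0.52 without untreated 14). The iron permease gene FTR1 had -1.42, edgeR adjusted p = 0.34.

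ENA1 (YDR040C), a sodium export pump, had 52.2 and 34.9 CPM with MCHM, against 294 and 229 CPM without (log2 fold change -2.59 ± 0.43, edgeR adjusted p = 0.020). ENA1 has near-identical neighbours, ENA2 and ENA5, between which reads can be split, so its own share is uncertain. Among 13 ion pumps and pH genes it was the 1 gene called. SHH4 (YLR164W), a mitochondrial relative of a succinate dehydrogenase anchor subunit, had 64.9 and 50.03 CPM with MCHM, against 293 and 215 CPM without (log2 fold change -2.15 ± 0.28, edgeR adjusted p = 0.0048). ADH6 (YMR318C), an NADPH-dependent alcohol dehydrogenase, had 137 and 122 CPM with MCHM, against 312 and 327 CPM without (log2 fold change -1.31 ± 0.24, edgeR adjusted p = 0.031). It was not called with the block (-1.31, edgeR adjusted p = 0.062). Both treated libraries were below both untreated libraries in each of these genes. The libraries did not overlap, in either direction, in any of the 32 called genes and in 39.8% of all tested genes.

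PCL1 (YNL289W), a cyclin of G1 phase, had 6.21 and 4.99 CPM with MCHM, against 15.9 and 34.7 CPM without (log2 fold change -2.19 ± 0.40, edgeR adjusted p = 0.029). TOS7 (YOL019W), a target of the G1 factor SBF, had 45.4 and 16.6 CPM with MCHM, against 150.2 and 149 CPM without (log2 fold change -2.29 ± 0.40, edgeR adjusted p = 0.023). Levels of PCL1 were low throughout. In RNA of whole cultures, fewer cells in a phase and less RNA per cell cannot be told apart. Other G1/S genes were not called. The ribonucleotide reductase gene RNR1 had 33.2 and 14.3 CPM with MCHM, against 54.8 and 219.8 CPM without (log2 fold change -2.55 ± 0.93, edgeR adjusted p = 0.45). The G1 cyclin genes CLN1 and CLN2 had log2 fold changes of -1.25 and -1.47. The list of 37 deoxynucleotide and G1/S genes had 0 calls by edgeR (5 with unadjusted p under 0.05 and 2-fold, 0 by DESeq2) and a median of -0.38 (-0.56 without untreated 6, -0.20 without untreated 14). The unadjusted rule was passed by 196 of all 5856 tested genes. Of the list's members 32 were below 0, against 3313 of all 5856 tested genes.

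YGK3 (YOL128C), a kinase of the GSK-3 family, had 36.3 and 27.7 CPM with MCHM, against 129 and 92.9 CPM without (log2 fold change -1.80 ± 0.28, edgeR adjusted p = 0.013). NHP6B (YBR089C-A), an HMG chromatin protein, had 27.3 and 21.8 CPM with MCHM, against 78.4 and 68.2 CPM without (log2 fold change -1.58 ± 0.27, edgeR adjusted p = 0.023). It overlaps YBR090C by 157 bases, so the reads of these genes are not separable there. SEN34 (YAR008W), a subunit of the tRNA splicing endonuclease, had 1.24 and 1.66 CPM with MCHM, against 8.48 and 10.5 CPM without (log2 fold change -2.63 ± 0.40, edgeR adjusted p = 0.012). SEN34 was the least abundant gene called, with 4 and 12 reads with MCHM, against 33 and 44 without.

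The culture block added 24 genes that were not called without it, 11 up and 13 down. GIT1, the glycerophosphoinositol permease gene, had 9.63 and 19.7 CPM with MCHM, against 38.3 and 232 CPM without. The peroxiredoxin gene TSA2 had 87.6 and 43.8 CPM with MCHM, against 227 and 251 CPM without. The superoxide dismutase gene SOD1 had 1426 and 953 CPM with MCHM, against 3363 and 2381 CPM without, and the glutathione transferase gene GTT1 341 and 236 CPM with MCHM, against 1258 and 819 CPM without. GIT1 differed several-fold between its untreated libraries. The other decreases were QDR2, a drug exporter of the major facilitator family (block log2 fold change -1.64, edgeR adjusted p = 0.020), the vacuolar protease gene PRB1 (-1.47, edgeR adjusted p = 0.029), the biotin synthase gene BIO2 (-1.49, edgeR adjusted p = 0.022), the spermidine synthase gene SPE3 (-1.07, edgeR adjusted p = 0.049) and YJR149W (-1.46, edgeR adjusted p = 0.043). The increases included CYB2, lactate dehydrogenase (1.43, edgeR adjusted p = 0.022), CHA1, which breaks down serine and threonine (1.93, edgeR adjusted p = 0.014), PIG2, a glycogen-targeting phosphatase subunit (1.72, edgeR adjusted p = 0.026), and HBN1, related to nitroreductases (2.78, edgeR adjusted p = 0.031). YHR140W (1.49, edgeR adjusted p = 0.0497), YPR015C (1.89, edgeR adjusted p = 0.025) and YER053C-A (2.43, edgeR adjusted p = 0.0090) make up the rest.

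**Figure D2:**
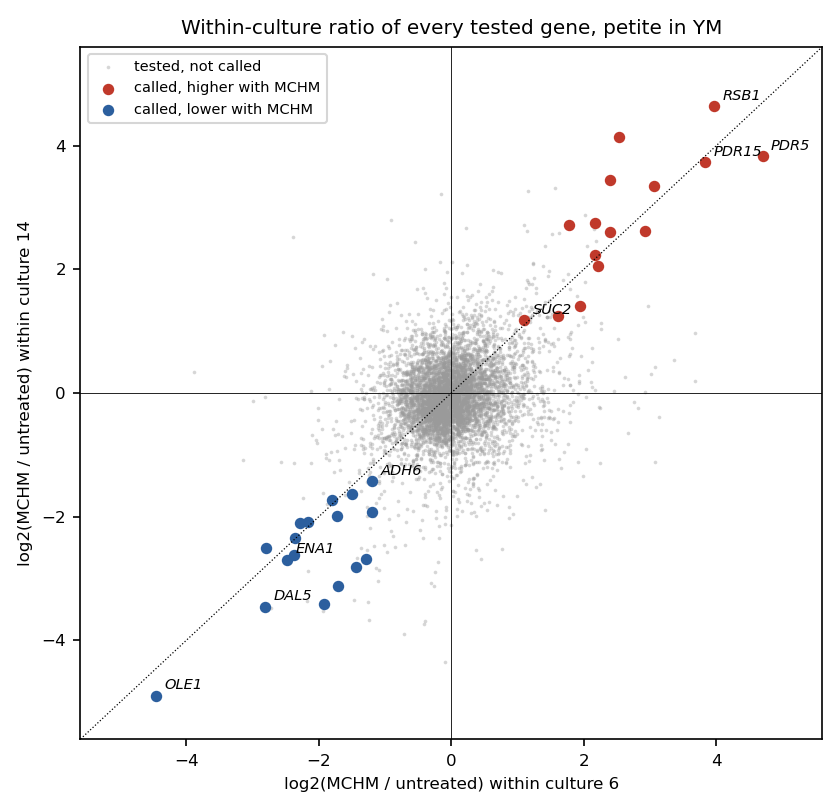
Log2 ratio of MCHM over untreated within culture 6 (x axis) and within culture 14 (y axis) for each of the 5856 tested genes of petite yeast in YM, on CPM with 0.5 added, with called genes in colour and the diagonal dotted. All 32 called genes lie at the upper right or lower left, while 79 genes were at least 2-fold higher and 73 at least 2-fold lower in both cultures.

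Across the 5856 genes, which share libraries and are not independent, the log2 ratios of cultures 6 and 14 had a correlation of 0.31, beside 0.63 between the cultures of petite yeast in YPD and 0.55 between those of grande yeast in YM. As the plot of within-culture ratios shows, the called genes lie at the ends of this cloud, and some genes with a large ratio in 1 culture had none in the other.

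Some lists had 0 calls by edgeR but members mostly on 1 side of 0. Of all 5856 tested genes, 2543 were above 0 and 3313 below. Glycolysis and fermentation genes had 27 of 30 members above 0 and a median of 0.75 (0.46 without MCHM 6, 1.07 without MCHM 14). Of them 7 passed 2-fold with p under 0.05 before adjustment, and DESeq2 called 4. Over all 5856 tested genes these counts were 196 and 86. The glyceraldehyde-3-phosphate dehydrogenase gene TDH2 had 6217 and 2605 CPM with MCHM, against 1660.2 and 875 CPM without (log2 fold change 1.80 ± 0.49, edgeR adjusted p = 0.21). The enolase gene ENO1 had 22767 and 11277 CPM with MCHM, against 7089 and 3159 CPM without (log2 fold change 1.73 ± 0.92, edgeR adjusted p = 0.69). The alcohol dehydrogenase gene ADH1 had 24711 and 13995 CPM with MCHM, against 8825 and 5964 CPM without (log2 fold change 1.39 ± 0.36, edgeR adjusted p = 0.17). All 3 genes were higher in culture 6 than in culture 14, with and without MCHM, and TDH2 and ENO1 have close paralogs with which reads can be shared. HXK2, a hexokinase, had a log2 fold change of 1.20 (edgeR adjusted p = 0.11). Phosphate genes had 21 of 23 members below 0 and a median of -0.64 (-0.78 without untreated 6, -0.15 without untreated 14). Of them 0 were called by edgeR (1 down, GIT1, with the block, 3 at an unadjusted p under 0.05 and 2 by DESeq2). PHO89, a phosphate importer, had 478 and 425 CPM with MCHM, against 1050.3 and 3037 CPM without (log2 fold change -2.18 ± 0.70, edgeR adjusted p = 0.34). PHO84, the main high-affinity importer, had 4519 and 4273 CPM with MCHM, against 4517 and 10864 CPM without (log2 fold change -0.81 ± 0.64, edgeR adjusted p = 0.80). PHO84 overlaps the noncoding YNCM0001W by 1764 bases, its whole span, so its reads and those of YNCM0001W cannot be told apart. In both importer genes the untreated library of culture 14 was the highest of the 4, and PHM7 (-1.77) and PHM8 (0.97) lay on opposite sides of 0.

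Beside 3313 of all 5856 tested genes, 45 of 47 ribosome biogenesis factors were below 0, with a median of -0.36 (-0.53 without untreated 14, -0.22 without untreated 6). Of 137 cytosolic ribosomal protein genes 127 were below 0, with a median of -0.30 (-0.42 without MCHM 6, -0.17 without MCHM 14). In both lists 0 were called by edgeR, 0 passed with unadjusted p under 0.05 and 2-fold, and 0 were called by DESeq2. Acetaldehyde and acetate genes had a median of -0.70 (-0.87 without MCHM 14, -0.27 without untreated 14) over 20 members, of which ADH6 was called, and the acetaldehyde dehydrogenase genes ALD6 (-1.80, edgeR adjusted p = 0.65) and ALD4 (-1.91, edgeR adjusted p = 0.74) were not called. Cell wall lists had 0 calls over 31 structural and 29 glucan and chitin genes, with medians of -0.21 (-0.70 without MCHM 6, -0.10 without MCHM 14) and -0.48 (-0.76 without MCHM 6, 0.02 without MCHM 14). With unadjusted p under 0.05 and 2-fold there were 4 and 1, and DESeq2 called 1 in each. Over all 5856 tested genes, 196 passed the unadjusted rule and DESeq2 called 86. The wall mannoprotein gene SED1 had 2471 and 745 CPM with MCHM, against 5825 and 9496 CPM without (log2 fold change -2.25 ± 0.88, edgeR adjusted p = 0.52). TIP1, another, had 135 and 73.2 CPM with MCHM, against 290.3 and 603 CPM without (log2 fold change -2.10 ± 0.51, edgeR adjusted p = 0.12). The glucanase-family gene SCW10 had 76.1 and 48.2 CPM with MCHM, against 138 and 275 CPM without (log2 fold change -1.74 ± 0.40, edgeR adjusted p = 0.097). These wall genes were lower in both treated libraries than in either untreated library, and none passed the test. Treated and untreated libraries did not overlap, in either direction, for 39.8% of all tested genes. In the 2 wall lists, 10 structural and 6 glucan and chitin genes were above 0. Hexose transporters, general stress genes, trehalose and glycogen genes, heat shock chaperones, the peroxide defence list, proteasome genes, core histones, citrate cycle genes and nuclear-encoded respiratory genes had 0 calls by edgeR without the block, with medians between -0.31 and 0.16, or -0.63 and 0.49 with 1 library left out. Over these 9 lists, 5 genes were lower by 2-fold at an unadjusted p under 0.05 and 2 were called by DESeq2. With the block, 2 genes of the peroxide defence list and 1 general stress gene were called down.

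**Figure D3:**
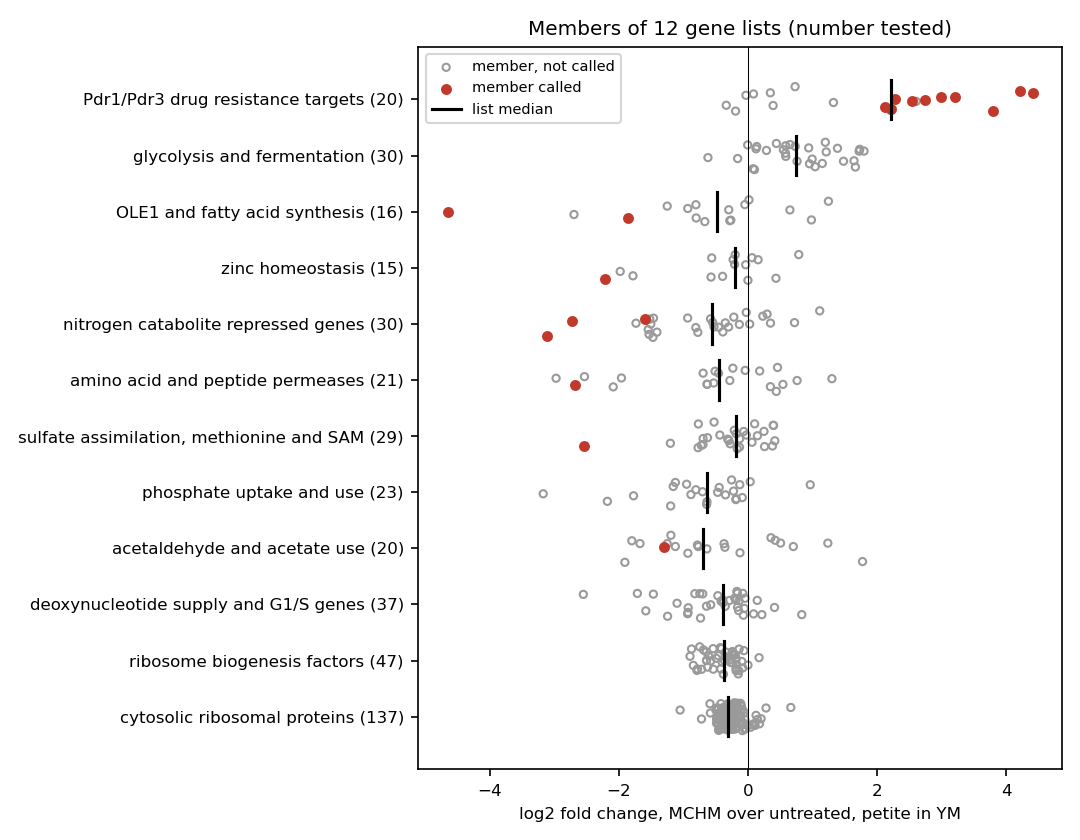
Log2 fold change of MCHM over untreated in petite yeast in YM for the members of 12 gene lists, with called members filled, the others open, and a black bar at the median of each list. The median of the Pdr1/Pdr3 list is at 2.21 and that of glycolysis at 0.75, while the other 10 medians lie between -0.70 and -0.18.

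The same 32 genes were then read in the YPD cultures of petite yeast and the YM cultures of grande yeast. All 15 genes called up had a log2 fold change above 0 in both, from 0.38 to 3.17 in petite yeast in YPD and between 0.71 and 4.97 in grande cells in YM. Of the 17 called down, 17 were below 0 in grande yeast in YM (-3.99 to -0.04) but 10 were below and 7 above 0 in petite yeast in YPD (-2.23 to 2.14). PDR5 had a log2 fold change of 4.22 in petite cells in YM, 1.29 in petite cells in YPD and 4.08 in grande cells in YM. Petite yeast in YPD had 14792 and 12312 CPM with MCHM, against 3043 and 8042 CPM without. Grande yeast in YM had 13800.5 and 16075 CPM with MCHM, against 867 and 895 CPM without. The petite response in YM less that in YPD was 2.93 ± 0.62, edgeR adjusted p = 0.059 for PDR5. It was 2.62 ± 0.56, edgeR adjusted p = 0.059 for RSB1, and neither passed the threshold. OLE1 had -4.65 in petite cells in YM, -2.23 in petite cells in YPD and -3.99 in grande cells in YM. Its difference between the media was -2.42 ± 0.67, edgeR adjusted p = 0.14.

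Set against its response in YPD, the response of petite yeast in YM differed in 27 genes (0.461% of those tested) by an interaction test. It was higher in YM for 6 of them and lower for 21. With library size alone, which puts the median difference of all genes at 0.13 instead of 0.02, it was higher for 31 and lower for 27. With only the groups compared, and without each of the 4 petite YM libraries, 0 higher calls were left by edgeR. With the culture block it called 108, and without the treated library of culture 14 it called 1. Several of them serve nitrogen use. PUT1, proline oxidase, had 1136 and 705 CPM with MCHM, against 2743 and 2536 CPM without in petite yeast in YM. In YPD it had 104 and 103 CPM with MCHM, against 9.86 and 6.18 CPM without. Its response in YM less that in YPD was -5.23 ± 0.55, edgeR adjusted p = 0.0036, and the directions were opposite. The urea transporter gene DUR3 had -2.73 in YM and 2.14 in YPD (difference -4.87 ± 0.69, edgeR adjusted p = 0.019). DUR12, urea amidolyase, had -0.81 and 3.49 (difference -4.30 ± 0.68, edgeR adjusted p = 0.026). PUT2 had -1.60 and 1.10 (difference -2.70 ± 0.43, edgeR adjusted p = 0.026). All these genes had a lower response in YM. For GDH1, a glutamate-forming dehydrogenase, and MEP1, an ammonium permease, the change was near 0 in YM (-0.01 and 0.03) and well above 0 in YPD (2.50 and 2.01). The median of the 30 nitrogen genes was -0.56 in YM and 1.34 in YPD for petite yeast, and it was -0.34 for grande yeast in YM. PUT1 fell in grande yeast in YM as well, with 8.60 and 13.2 CPM with MCHM, against 184 and 111 CPM without. MEP1 was higher there with MCHM, with 341 and 420 CPM, against 258 and 243 CPM without.

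Genes of sulfur use were also among the 27. MET3, ATP sulfurylase, had log2 fold changes of -0.63 in YM and 2.79 in YPD (difference -3.41 ± 0.52, edgeR adjusted p = 0.026). MET10, a sulfite reductase subunit, had -0.72 and 2.31 (difference -3.03 ± 0.54, edgeR adjusted p = 0.036). MET6, methionine synthase, had -0.70 and 2.98 (difference -3.68 ± 0.64, edgeR adjusted p = 0.032). None of these 3 genes was called in petite yeast in YM. The cysteine transporter gene YCT1 had -2.54 and 0.85 (difference -3.40 ± 0.62, edgeR adjusted p = 0.038). The glutathione transporter gene OPT1 had -2.68 and -0.07 (difference -2.61 ± 0.45, edgeR adjusted p = 0.032). Over 29 sulfur genes the median was -0.18 in YM and 1.39 in YPD for petite yeast, and it was 0.93 for grande yeast in YM. SHH4 (-2.15 in YM, 1.22 in YPD) and SER3 (-2.17 in YM, 0.10 in YPD) were called in petite yeast in YM and in the difference as well.

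The 6 genes with a higher response in YM were 5 ribosomal protein genes and PHO3, an acid phosphatase gene. RPL9A, of the large ribosomal subunit, had 276 and 219.9 CPM with MCHM, against 302 and 377 CPM without in YM. In YPD it had 176 and 147 CPM with MCHM, against 1125 and 1029 CPM without (difference 2.28 ± 0.39, edgeR adjusted p = 0.032). RPS26B, RPL31A, RPL24A and RPS19A had log2 fold changes between -0.58 and -0.06 in YM and between -2.33 and -1.58 in YPD. These genes have paralogs of nearly the same sequence, between which reads can be split. The median over the 137 ribosomal protein genes was -0.30 in YM and -1.45 in YPD, and over the 47 biogenesis factors it was -0.36 and -1.25. In grande yeast in YM these medians were -0.34 and -0.51.

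Against grande yeast in YM, the response of petite yeast differed in 1 gene (0.0171% of those tested) by edgeR. At an unadjusted p under 0.05 and 2-fold there were 348 genes, with the culture block there were 6, and DESeq2 called 65. That gene was AGP1, a broad amino acid permease. AGP1 had 61.8 and 68.2 CPM with MCHM, against 81.2 and 107 CPM without in petite yeast. In grande yeast it had 1621 and 653 CPM with MCHM, against 42.7 and 63.6 CPM without (difference -4.95 ± 0.67, edgeR adjusted p = 0.046). In grande yeast the treated libraries were far above the untreated ones, and in petite yeast they were slightly below. For the 32 called genes the difference between the strains stayed short of the threshold, which does not show that the strains responded alike. OPT1 came nearest, at -2.63 ± 0.45, edgeR adjusted p = 0.084.

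**Figure D4:**
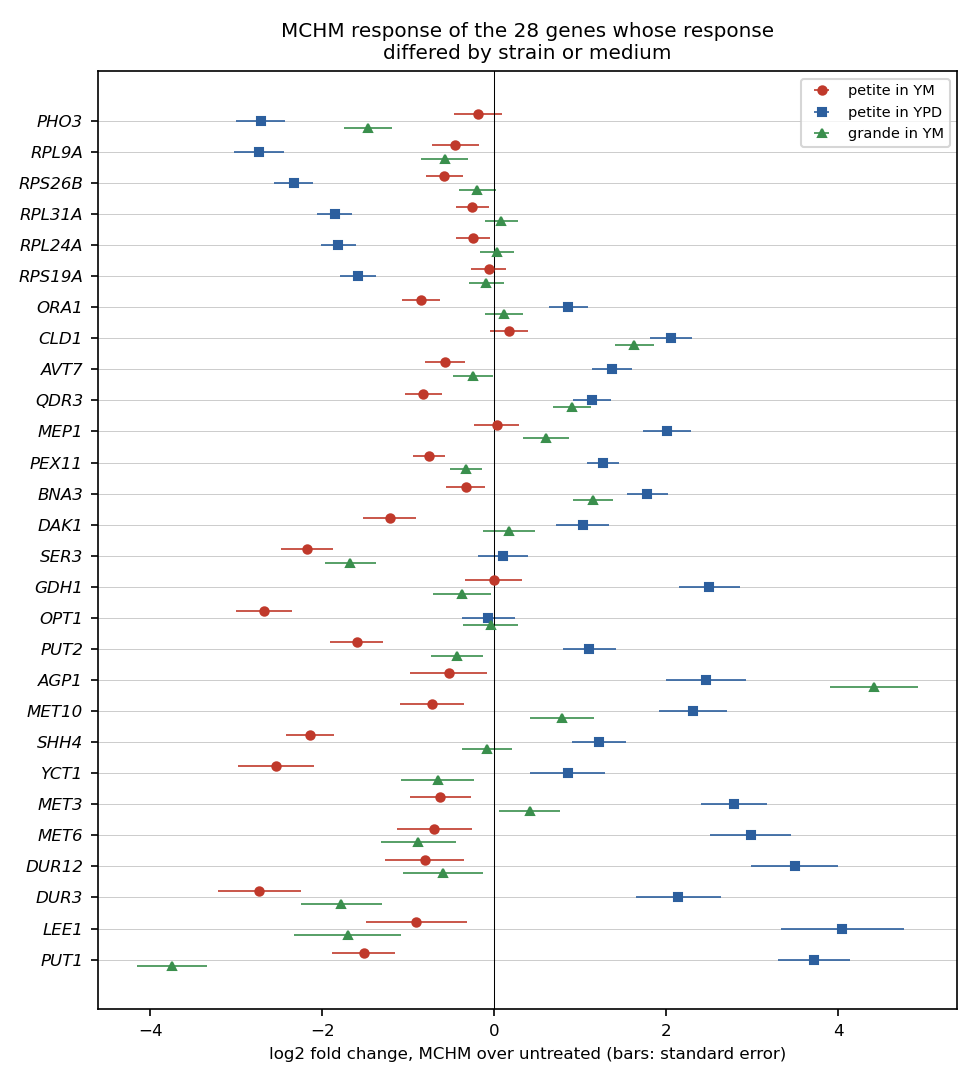
Log2 fold change of MCHM over untreated, with its standard error, for the 28 genes whose response in petite yeast in YM differed from that in petite yeast in YPD (27 genes) or grande yeast in YM (AGP1), with circles for petite yeast in YM, squares for petite yeast in YPD and triangles for grande yeast in YM. Ribosomal protein genes and PHO3 at the top lie below 0 in YPD and nearer 0 in YM, and the 21 other genes of the YPD comparison lie further to the right in YPD than in YM.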

How the data were processed

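Hot phenol RNA from 16 subcultures of 8 yeast cultures was made into unstranded paired-end libraries and sequenced on an Illumina MiSeq. The authors deposited whole-number read counts per gene for 6717 genes, made with Rsubread and not normalised. The submitters' processing notes name CASAVA 1.7, TopHat2 2.0.12, DESeq2 1.8.1 and the build R64 (sacCer3), and the annotation is not given in the sources used here. A deposited table of the authors' DESeq2 comparisons, with fold changes and p-values, was not used. Columns were put into groups by name and paired by culture number, and 0 columns of other samples were present. The names do not say which labelled replicate a column is.

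Genes were tested with edgeR 4.0.16 in R 4.3.3 (filterByExpr with a minimum count of 10 and total of 15, TMM scaling, a mean for each of 8 groups over 16 libraries, quasi-likelihood F test, Benjamini-Hochberg adjustment over 5856 genes). The common biological coefficient of variation was 29.5%, or 22.4% with the culture as a block. By the labels, treated and untreated subcultures share a parent culture. Deviations of treated and untreated libraries from their group means correlated at 0.34 across genes within petite yeast in YM. The main fit had no block all the same, and the culture was the block only in the alternative fit. CPM values use TMM-scaled library sizes, and 3 counts, the limit for a count of 0, are 0.527 to 0.906 CPM in these 4 libraries, which covers counting error only. Alternatives were RLE scaling, library size alone, no filter, a mean of at least 50 counts, DESeq2 1.42.0, the 4 or 8 libraries of the comparison alone, the block, adjusted p alone, and each library left out. With 2 libraries per group no permutation test can give a small p. P-values of the main fit rest on the spread between the 2 libraries of a group, pooled over all 8 groups. That fit treats the treated and untreated parts of a culture as independent.

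The text names all called genes, genes called with the block, genes called in a difference between responses, and members of 32 lists. Members and lists were chosen with earlier results of these data known. Symbols matched 6025 identifiers in the RefSeq R64 annotation, from which sequences and coordinates come. On simulated data for this comparison, 78 of 100 genes changed 4-fold and 15 of 100 changed 2-fold were called among 5808 genes, with 6 unchanged genes called. The simulated libraries shared no culture and did not differ by strain or medium. Changes were placed only in genes above a limit on mean counts. These numbers thus need not hold for the real libraries, which share parent cultures.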

Additional observations from a re-analysis of the deposited data

Results flagged for a closer look

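The response of petite yeast in YM differed, by edgeR's test of the difference itself (adjusted p under 0.05 and at least 2-fold), from that of petite yeast in YPD in 27 genes and from that of grande yeast in YM in 1 gene. Each value is the log2 response to MCHM of petite cells in YM less the log2 response in the other comparison.

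Against petite yeast in YPD, 7 genes of nitrogen use and proline breakdown had a lower response in YM. PUT1 differed by -5.23, DUR3 by -4.87, DUR12 by -4.30, PUT2 by -2.70, GDH1 by -2.51, MEP1 by -1.98 and the vacuolar amino acid transporter gene AVT7 by -1.95. Among sulfur and peptide genes, MET6 differed by -3.68, MET3 by -3.41, YCT1 by -3.40, MET10 by -3.03 and OPT1 by -2.61.

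The other genes with a lower response in YM were LEE1, a zinc-finger protein (-4.95), SHH4 (-3.36), SER3 (-2.28), the dihydroxyacetone kinase gene DAK1 (-2.24), the kynurenine aminotransferase gene BNA3 (-2.11), the peroxisome gene PEX11 (-2.03), the drug exporter gene QDR3 (-1.96), the cardiolipin lipase gene CLD1 (-1.88) and the dehydrogenase gene ORA1 (-1.72). A higher response in YM was found for PHO3 (2.53), RPL9A (2.28), RPS26B (1.75), RPL31A (1.60), RPL24A (1.56) and RPS19A (1.52). Against grande yeast in YM, AGP1 differed by -4.95.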

How the results depend on the processing

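The count of 32 called genes stayed between 32 and 43 with RLE scaling, library size alone, no filter, a mean of at least 50 counts and adjusted p alone, and it was 86 with DESeq2 (37 up, 49 down, all 32 among them), 54 with the culture as replicate block, 9 with only the groups compared, and between 5 and 22 with 1 library left out. All 32 kept their direction under each of these alternatives that gave a value. The 27 genes whose response differed between YM and YPD (6 higher, 21 lower in YM) became 58 with library size alone (31 higher, 27 lower), 46 with a mean of at least 50 counts (17 higher, 29 lower), 218 with DESeq2, 108 with the replicate block, 9 with only the groups compared, and 1 to 21 with 1 library left out. The 1 gene that differed from grande yeast became 2, 0, 65, 6 and 0 under the same 5 settings, and 0 to 3 with 1 library left out. The replicate block (pairing treated and untreated parts of a culture) ended the calls of SUC2 and ADH6 and added the 24 genes described above. Of 31 list medians, 17 turned sign, and 30 turned sign or moved by over 1.5 times, with 1 of the 4 libraries left out. The cause of these shifts was not tested. Signs near 0 turned in petite yeast in YM for RPS19A (0.0141 with library size alone, 0.0026 with no filter, 0.0140 with only the groups compared) and GDH1 (0.073, 0.060 and 0.069 under the same settings, 0.021 with a mean of at least 50 counts, 0.033 with the block). With 1 library left out, values ran from -0.31 to 0.37 for GDH1, -0.48 to 0.063 for PHO3, -0.0801 to 0.47 for CLD1, -0.27 to 0.40 for MEP1 and -0.21 to 0.46 for PDR18. A lone library left in a group is assumed to vary like those of the other groups. Depth limits rare genes, since 3 counts are up to 0.906 CPM here.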
